A study of Mus musculus with 3 samples.

Results

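Among the genes measured in mouse spleen RNA against a reference RNA are 9 genes of the interferon response, immune GTPase families and antigen processing by MHC class I. They are the transcription factor gene Stat2, the GTPase genes Igtp, Iigp1 and Gimap3, and the antiviral membrane protein gene Bst2. The others are the proteasome activator genes Psme1 and Psme2 and the peptide loading genes Tap2 and Tapbp. All 9 were chosen by name, with earlier results of these data known. All probes that the platform annotation gives to one of these symbols alone were taken, which are 11 of the 16273 probes in the table. Psme1 and Tapbp have 2 probes each and the other genes 1. On each of 3 two-colour arrays, which form 1 group, spleen cRNA, made from a purchased total RNA, was in the red channel (Cy5), and cRNA of the purchased Universal Mouse Reference RNA, a cell line pool, was in the green channel (Cy3), both after a single amplification round. No treatment is labelled, and for the spleen donors no source used here gives the strain, age, sex or number. The labels give 1 product for each RNA, so the p-values measure only how far the arrays spread, possibly for technical reasons, and do not extend to other spleens.

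The deposited value is a signed log ratio with unstated base and numerator. Positive values are read here as likely spleen-high. Spleen carried the red dye, red is usually divided by green, and most immune and blood cell markers given near the end are positive. The titles name the reference first, which could mean the opposite order, and with 1 dye orientation an effect of dye on a probe cannot be told apart from one of RNA. Each fold is printed in base 2 and in natural logs, as either may apply. A value of exactly 0 was read as no measurement. A ratio in tissue RNA cannot tell more cells of an expressing type from more RNA per cell.

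Interferons signal through paired receptors and JAK kinases to STAT transcription factors. Genes induced by type I interferon, whose signal runs through STAT2 and IRF9, often carry the interferon-stimulated response element in their promoters, and genes induced by interferon gamma often carry the gamma-activated sequence. Induced genes include GTPases that attack the vacuoles of intracellular pathogens, antiviral proteins, and the machinery that cuts cytosolic proteins into peptides, moves the peptides into the endoplasmic reticulum and loads them on MHC class I. The spleen filters blood and holds many lymphocytes and phagocytes, in which much of this machinery is present without infection.

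The promoters of these genes show which of them carry the letters of those elements, and 5 are printed because they hold at least 1 match. Each runs from 250 bases before the annotated gene start to 30 bases after it, from RefSeq sequence of build GRCm38.p6, 5′ to 3′ on the strand of the gene. Capitals mark matches to the core of the interferon-stimulated response element (GAAA, any 2 bases, then GAAA, on either strand), or to TTCNNNGAA, the core of the gamma-activated sequence, which reads the same on both strands.
Igtp, chr11:58199306-58199585, plus strand: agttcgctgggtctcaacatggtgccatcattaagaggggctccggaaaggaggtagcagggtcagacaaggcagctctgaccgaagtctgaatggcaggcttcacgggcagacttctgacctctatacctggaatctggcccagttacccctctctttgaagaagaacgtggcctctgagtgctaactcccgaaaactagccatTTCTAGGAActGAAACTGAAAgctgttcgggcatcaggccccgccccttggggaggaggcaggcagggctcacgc
Bst2, chr8:71537443-71537722, minus strand: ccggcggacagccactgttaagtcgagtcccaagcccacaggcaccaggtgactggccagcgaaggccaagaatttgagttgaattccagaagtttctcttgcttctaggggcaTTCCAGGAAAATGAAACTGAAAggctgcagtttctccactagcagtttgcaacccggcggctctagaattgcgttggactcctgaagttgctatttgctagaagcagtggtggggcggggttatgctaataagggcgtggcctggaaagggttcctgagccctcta
Stat2, chr10:128270248-128270527, plus strand: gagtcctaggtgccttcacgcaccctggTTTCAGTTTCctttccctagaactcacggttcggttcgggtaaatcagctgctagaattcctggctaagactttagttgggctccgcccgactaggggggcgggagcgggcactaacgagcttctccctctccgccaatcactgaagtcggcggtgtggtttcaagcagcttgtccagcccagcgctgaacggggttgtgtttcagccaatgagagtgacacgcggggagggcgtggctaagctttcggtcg
Psme1, chr14:55578244-55578523, plus strand: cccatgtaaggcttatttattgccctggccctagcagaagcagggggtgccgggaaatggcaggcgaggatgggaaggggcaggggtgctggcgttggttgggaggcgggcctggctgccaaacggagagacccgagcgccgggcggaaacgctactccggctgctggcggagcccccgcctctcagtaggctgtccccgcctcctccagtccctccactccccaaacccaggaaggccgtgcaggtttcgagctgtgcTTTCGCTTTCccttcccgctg
Gimap3, chr6:48770822-48771101, minus strand: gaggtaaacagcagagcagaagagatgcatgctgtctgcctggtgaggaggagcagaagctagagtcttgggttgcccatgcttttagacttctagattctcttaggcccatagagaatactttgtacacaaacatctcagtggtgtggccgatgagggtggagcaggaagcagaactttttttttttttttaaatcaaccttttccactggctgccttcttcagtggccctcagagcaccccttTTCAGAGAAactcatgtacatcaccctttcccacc

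RefSeq windows were matched for 7 of the 9 genes, with 2 windows for Psme2, and the search covered 300 bases of each, to 50 bases after the start. The response element core was found in 4 genes, Igtp, Bst2, Stat2 and Psme1, and in 3.44% of the 32851 promoter windows of the whole table. The gamma-activated core was found in 3 genes, Igtp, Bst2 and Gimap3, and in 8.30% of all windows. In Igtp the gamma-activated core TTCTAGGAA begins 45 bases and the response element core GAAACTGAAA 34 bases before the start. Bst2 has TTCCAGGAA from 136 bases before its start, overlapped by GAAAATGAAA from 130 bases before it, which is in turn overlapped by GAAACTGAAA from 124 bases before it. Stat2 has TTTCAGTTTC, the response element on the opposite strand, from 222 bases before the start. In Psme1 the opposite-strand match TTTCGCTTTC begins 9 bases after the start, and in Gimap3 TTCAGAGAA begins 5 bases before it. No match lay in the windows of Psme2 and Tapbp. A match describes the letters of the window and does not show binding.

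**Figure D1:**
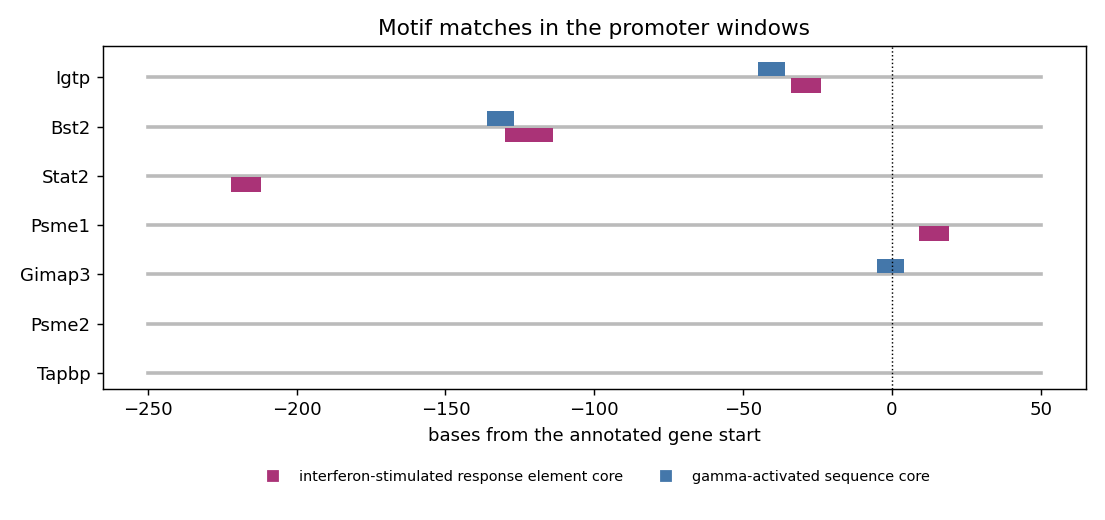
Positions of the 2 searched motif cores in the promoter windows of 7 genes, in bases from the annotated gene start (dotted line), with both Psme2 windows free of matches and drawn as 1 line. Bars are drawn to the length of the match, and the 2 overlapping response element matches of Bst2 appear as 1 bar. The Igtp and Bst2 windows hold both cores, side by side or overlapping.

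All 9 probes that were measured on all 3 arrays had positive ratios on every array, and all 9 passed the test. They cover 8 of the 9 genes. Across the array 38.3% of the 11086 probes measured on all arrays were above 0 on all 3, and 32.3% passed with a positive mean (limma test of the mean against 0, Benjamini-Hochberg adjusted p under 0.05). Either sign was called for 68.3% of probes, so a call by itself sets a probe apart little, and the size of the ratio says more. The mean log ratios ran from 0.29 to 3.99 with a median of 0.97, against a median of -0.03 over all probes.

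**Figure D2:**
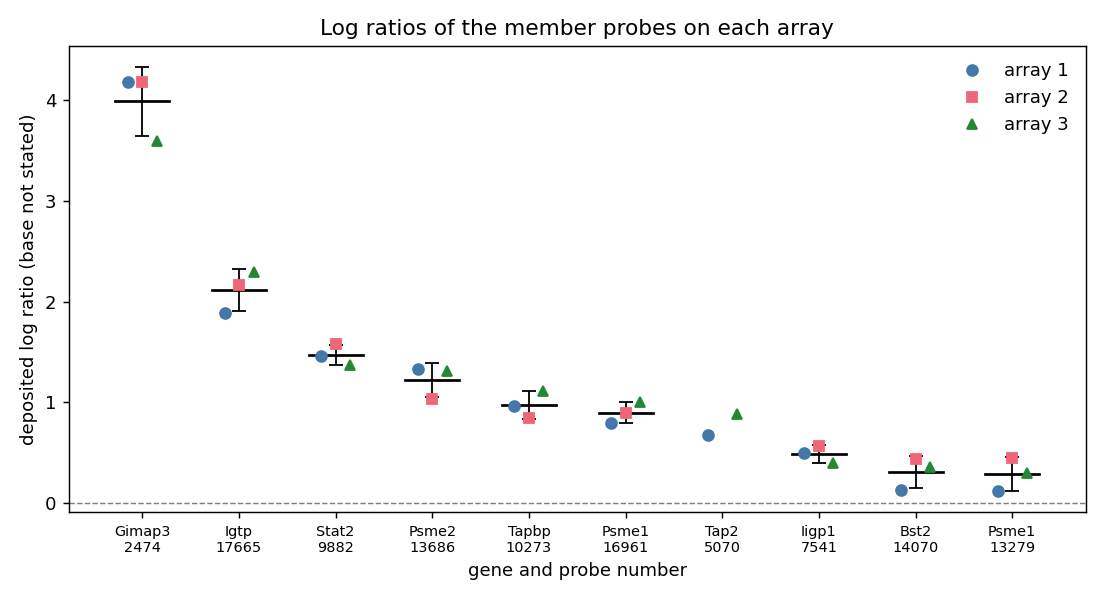
Deposited log ratio (base not stated) of each probe on arrays 1 to 3, ordered by mean. Horizontal bars are means and error bars the SD over 3 arrays, and Tap2 is shown by its 2 measured values alone. Gimap3 lies far above the others, and the lowest probes, of Bst2 and Psme1, reach down to 0.13 and 0.12 on array 1.

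Stat2 encodes the transcription factor that is specific to type I and type III interferon signalling. Its log ratio was 1.46, 1.58 and 1.37 on arrays 1 to 3. The 3 values lay close together and well above 0. The mean was 1.47 ± 0.10 (SD, n = 3), a 2.77-fold ratio in base 2 or 4.35-fold in natural logs, with a limma adjusted p of 4.67e-06, and 95.5% of probes measured on all arrays had a lower mean. Of 6 other tested genes of interferon receptors and signalling, 4 had positive calls, 1 had a negative call and 1 missed the threshold, and their median was 0.55. All genes tested, for comparison, had a median of -0.03 with 33.2% called positive. The kinase gene Tyk2, which acts beside the type I receptor, had a mean of 1.22 ± 0.19 (SD, n = 3), and Irf3, a transcription factor that switches on interferon genes, 0.85 ± 0.20 (SD, n = 3). The 2 chains of the type I interferon receptor differed, with Ifnar1 at 0.70 ± 0.075 (SD, n = 3) and Ifnar2 at -0.05 ± 0.30 (SD, n = 3). The Ifnar1 mean passed the gene test and the Ifnar2 mean did not (limma adjusted p = 0.688), while the difference between them was not tested. Ifnar2 was above 0 on array 2 alone, and without that array it passed at -0.23 (adjusted p = 0.0279). The feedback inhibitor Socs1 had 0.40 and the phosphatase Ptpn2 -0.24. The Ptpn2 call ended without array 1 (-0.19, adjusted p = 0.110), and its 2 probes read -0.50 and 0.02.

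Among the immunity-related GTPases, Igtp, also known as Irgm3, helps regulate the family on host membranes, and Iigp1, also known as Irga6, is an effector that coats pathogen vacuoles. Igtp had log ratios of 1.89, 2.16 and 2.29. Iigp1 had 0.49, 0.57 and 0.40. Every Igtp value was far above every Iigp1 value. The means were 2.12 ± 0.21 (SD, n = 3) for Igtp, or 4.34-fold in base 2 and 8.30-fold in natural logs, and 0.49 ± 0.088 (SD, n = 3) for Iigp1, or 1.40-fold and 1.63-fold. Within each array Igtp exceeded Iigp1 by 1.40, 1.59 and 1.90, a difference of log ratios and not of levels. Both passed the probe test, with limma adjusted p of 2.66e-06 and 0.000804. Of the pair, Igtp also passed limma's test against a 1.5-fold ratio in base 2 (adjusted p = 1.24e-05), which called 10.3% of all probes positive, and Iigp1 did not. The other tested gene of the interferon-inducible GTPase list was Gbp8, of the guanylate-binding protein family, with 2.96, 2.96 and 2.51 and a mean of 2.81 ± 0.26 (SD, n = 3). All 3 tested genes of that list were called positive, against 33.2% of all genes tested. Of its 21 genes, 4 had a named probe. Members of these families resemble each other in sequence, so a single member's probe is uncertain.

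Gimap3, listed here apart from the interferon-inducible GTPases, belongs to the GTPases of immunity-associated proteins, which are found mainly in lymphocytes and bear on their survival. It had the highest ratio of the 9 genes, at 4.19, 4.19 and 3.60. Arrays 1 and 2 read alike and array 3 lower, and all 3 lay above every value of the other genes here. The mean of 3.99 ± 0.34 (SD, n = 3) is a 15.9-fold ratio in base 2 and 54.1-fold in natural logs, with a limma adjusted p of 6.45e-07, and it ranked 27th from the top among 6077 genes. Its 3 values lay nearest to those of Cd8a, a co-receptor of cytotoxic T cells (3.99, 4.05 and 3.61, Euclidean distance 0.25 over the 3 arrays), and of Clec4a2, a C-type lectin receptor gene (4.31, 4.28 and 3.84, distance 0.28). The nearest genes to Igtp were Napsa (distance 0.23) and Tspan13 (0.23), and to Stat2 they were Cd82 (0.099) and Foxo1 (0.10), likeness that rests on 3 arrays of 1 comparison. The probe of Gimap6, the other gene of this family with a named probe, was at exactly 0 on all 3 arrays.

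Bst2 encodes tetherin, which holds budding enveloped virus particles at the cell surface. It had log ratios of 0.13, 0.44 and 0.36. Array 1 was lowest and nearer to 0 than to the other two. The mean was 0.31 ± 0.16 (SD, n = 3), or 1.24-fold in base 2 and 1.36-fold in natural logs, with a limma adjusted p of 0.0126. The call ended without variance moderation (adjusted p = 0.119). It also ended with values of 0 across the table kept as measurements (0.108), although Bst2 had no such value and its mean was unchanged. The mean reached 0.54 after a running median of the 10 probe numbers to each side was subtracted. Bst2 and Igtp, whose promoters both hold both motif cores, thus had mean log ratios of 0.31 and 2.12. Of 7 other interferon-induced effector genes tested, 5 had positive calls, 0 had negative calls and 2 missed the threshold, and their median was 1.54. Only 8 of the 47 genes of that list were tested, Bst2 included. Over all genes tested 33.2% were called positive, and the median was -0.03. Isg20, an exonuclease that degrades viral RNA, had a mean of 2.19 ± 0.031 (SD, n = 3), and its 4 probes ranged from 2.02 to 2.35. Parp14, an ADP-ribosyltransferase, had 2.09 ± 0.23 (SD, n = 3), Ifih1, the cytosolic sensor MDA5 of double-stranded RNA, 1.82 ± 0.075 (SD, n = 3), and Cxcl10, a chemokine that draws activated T cells, 1.54 ± 0.24 (SD, n = 3). The kinase gene Eif2ak2, which senses double-stranded RNA, and Tor3a had means of 0.09 and 0.03 that did not pass. With the trend along 10 probe numbers subtracted Eif2ak2 passed at 0.55 (adjusted p = 0.000662). The other called gene, Oasl2, had 0.25 ± 0.22 (SD, n = 3) and lost its call without array 1 (adjusted p = 0.177) or array 2 (0.152).

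Psme1 and Psme2 encode the alpha and beta subunits of PA28, the ring that caps the proteasome after interferon gamma and opens it for peptide release. Psme2 had log ratios of 1.34, 1.03 and 1.31. The 2 Psme1 probes read differently, probe 16961 at 0.80, 0.89 and 1.01 and probe 13279 at 0.12, 0.45 and 0.30. On every array Psme2 was highest, Psme1 probe 16961 next and probe 13279 lowest. The Psme2 mean was 1.23 ± 0.17 (SD, n = 3), or 2.34-fold in base 2 and 3.41-fold in natural logs, with a limma adjusted p of 2.24e-05. Psme1 probe 16961 had a mean of 0.90 ± 0.11 (SD, n = 3, adjusted p = 4.96e-05) and probe 13279 of 0.29 ± 0.17 (SD, n = 3, adjusted p = 0.0183). The 2 Psme1 probes thus differed by 0.68, 0.44 and 0.71 on the 3 arrays, which exceeds the SD of either. Psme2 exceeded probe 16961 by 0.54, 0.14 and 0.31, and with that probe the subunits lay nearer to each other than the Psme1 probes did, on every array and on the mean (0.33 against 0.61). Averaged, Psme1 had 0.59 ± 0.12 (SD, n = 3, limma gene test adjusted p = 0.000243).

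The lower Psme1 probe was the least settled of the 9. Subtracting on each array the running median over 5 probe numbers on either side, its own value included, left 0.07 (adjusted p = 0.266). It also lost its call without array 2 (0.21, adjusted p = 0.0636) and without moderation (0.140). The call ended too with 0 kept across the table (0.132), although this probe had no 0 and its mean was unchanged. Probe 16961 kept its call in each of these settings, at 0.80 with the same running median subtracted.

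The tested genes of the core beneath the cap had the opposite sign to Psme1 and Psme2. In the constitutive 20S proteasome, the core particle that does the cutting, all 3 tested genes of 14 listed were called negative. The gene test called 37.1% of all genes negative. The median of the 3 was -0.56, and none passed limma's test against a 1.5-fold ratio in base 2 (Psmb7 adjusted p = 0.145). Psmb7, a catalytic subunit that an interferon-induced subunit replaces in the immunoproteasome, had a mean of -0.72 ± 0.057 (SD, n = 3) with 4 probes between -1.08 and -0.37. Psmb5, another replaced catalytic subunit, had -0.56 ± 0.18 (SD, n = 3) and the ring subunit Psma2 -0.21 ± 0.073 (SD, n = 3). The Psmb5 call ended without moderation (adjusted p = 0.0647) and at -0.15 with the trend over 5 probe numbers subtracted (0.120). The Psma2 call ended without array 1 (0.132) or array 3 (0.0956) and without moderation (0.0680). It also ended with the trend over 20 (0.0595) or 40 (0.107) probe numbers subtracted. Pomp, the assembly chaperone shared by both kinds of proteasome, had -0.21 ± 0.13 (SD, n = 3). Its call ended with the arrays centred (adjusted p = 0.0549), without array 1 (0.205) and without array 2 (0.0543). The immunoproteasome genes Psmb8, Psmb9 and Psmb10 were not analysed here.

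Tap2 encodes a subunit of the transporter that carries peptides into the endoplasmic reticulum, and Tapbp encodes tapasin, which bridges that transporter to MHC class I and edits the bound peptides. Tapbp probe 10273 had log ratios of 0.97, 0.84 and 1.11. All 3 lay clear of 0. The mean of 0.97 ± 0.14 (SD, n = 3) is 1.96-fold in base 2 and 2.65-fold in natural logs, with a limma adjusted p of 4.63e-05. The second Tapbp probe, 1774, was at exactly 0 on all 3 arrays although the annotation gives both the same clone, so a 0 here does not speak for the gene. Kept as a value, that 0 brings the Tapbp gene mean to 0.49, still past the limma gene test (adjusted p = 0.011). Tap2 had 0.67 on array 1, exactly 0 on array 2 and 0.89 on array 3, and was therefore outside the test. Over its 2 measured arrays the mean was 0.78, or 1.72-fold in base 2, and with probes measured on at least 2 arrays admitted it passed (limma adjusted p = 0.000706). With the 0 kept as a value it had 0.52 and did not pass (adjusted p = 0.254).

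Of the rest of the MHC class I list only Canx, the chaperone calnexin that holds newly made class I chains, could be tested. Its mean was -0.22 ± 0.084 (SD, n = 3), and its probes read -0.33 and -0.12. The call of Canx ended without array 1 (adjusted p = 0.114) and with the trend over 5 probe numbers subtracted (-0.010, adjusted p = 0.882). Both probes of B2m, the invariant light chain of class I, were at exactly 0 on all arrays, and Tap1, H2-K1 and H2-D1 were not analysed here. In the MHC class II list, the route for extracellular antigen, both tested genes of 13 listed were called positive, against 33.2% of all genes tested. H2-Oa, a chain of the peptide-editing regulator H2-O, had 2.61 ± 0.089 (SD, n = 3) and the protease Ctss 1.35 ± 0.089 (SD, n = 3).

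**Figure D3:**
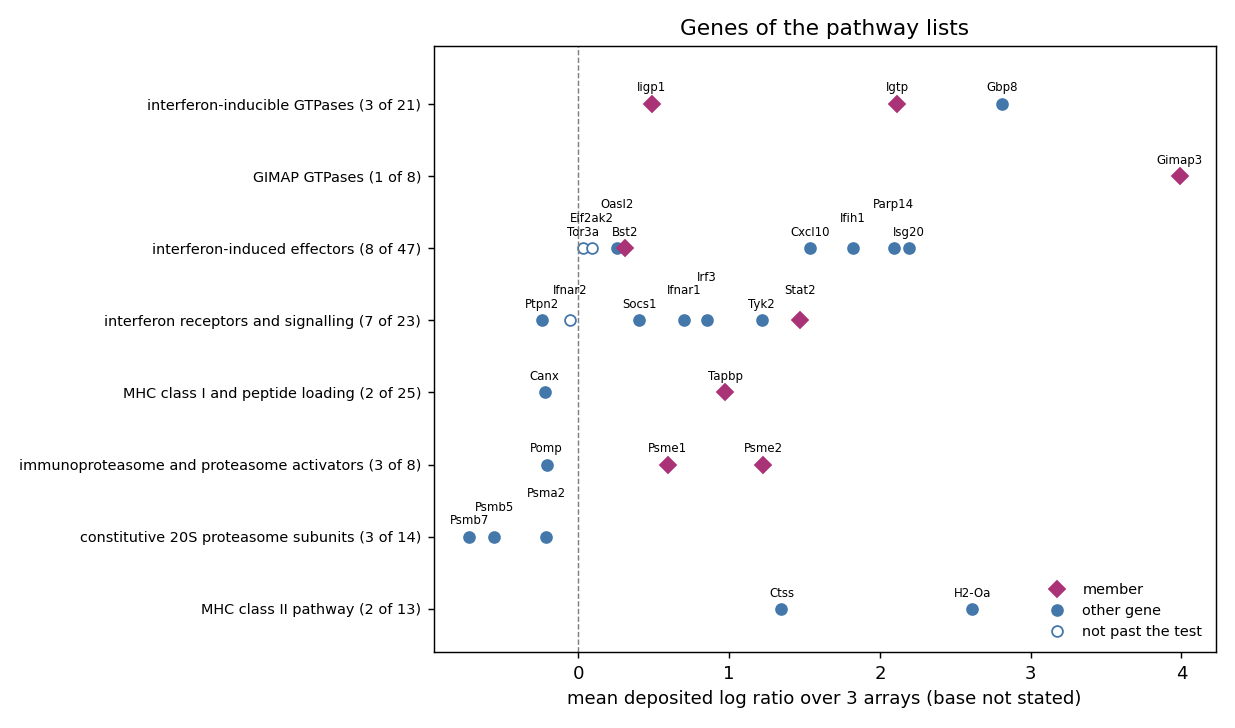
Mean deposited log ratio (base not stated) over 3 arrays of every tested gene of 8 pathway lists, with the number tested of the number listed in brackets. Diamonds are the genes described here, circles other genes and open symbols genes not past the limma gene test. The 3 constitutive proteasome genes lie between -0.72 and -0.21, and the 2 PA28 genes at 0.59 and 1.23.

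Seen together as genes, the 8 tested members had a median log ratio of 1.10, and 8 of 8 were called positive against 33.2% of the 6077 genes tested. Against a 1.5-fold ratio in base 2 the limma test called 5 of 8 (Gimap3, Igtp, Stat2, Psme2 and Tapbp), against 10.3% of all genes called positive. Because the genes were chosen with earlier results of these data known, these shares describe the set and do not test it. In order of mean they ran Gimap3, Igtp, Stat2, Psme2, Tapbp, Psme1, Iigp1, Bst2. The array values of neighbours in that order did not overlap between Gimap3 and Igtp, between Igtp and Stat2, and between Stat2 and Psme2. They overlapped between Psme2 and Tapbp and between Iigp1 and Bst2. Psme1, averaged over its probes, reached from 0.46 to 0.67 and so overlapped Iigp1 but not Tapbp. Its probes alone differed in this. Probe 16961, from 0.80 to 1.01, overlapped Tapbp but not Iigp1, and probe 13279, from 0.12 to 0.45, overlapped Iigp1 but not Tapbp. No array was lowest for all: array 1 was lowest for 4 of the 9 probes, array 2 for 2 and array 3 for 3. The SD over arrays was under the median of all probes, 0.12, for 3 of the 9.

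**Figure D4:**
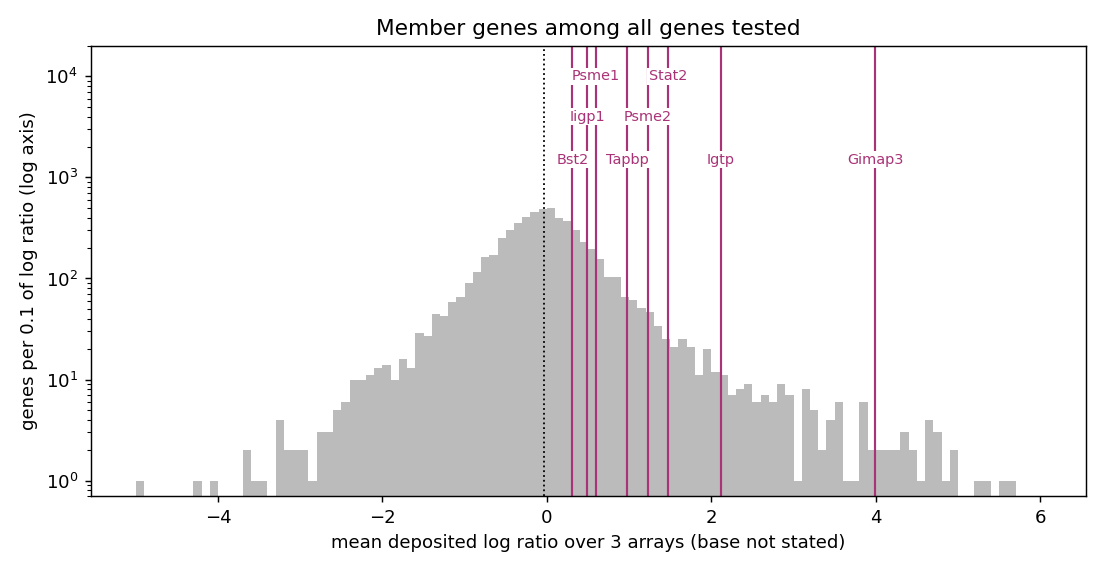
Histogram of the mean deposited log ratio (base not stated) of 6077 genes in steps of 0.1, with a logarithmic count axis, vertical lines at the 8 tested genes and a dotted line at the median of all genes, -0.03. Bst2 lies above 73.8% of genes and Gimap3 above 99.6%.

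Removing trends along the probe numbers or single arrays moved the 9 probes unequally. Gimap3 ranged from 3.43 to 4.19 over these settings and Igtp from 1.83 to 2.23. The means of Stat2, Psme2, Tapbp, Iigp1 and Psme1 probe 16961 each stayed within 1.5 times of their reported value.

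**Figure D5:**
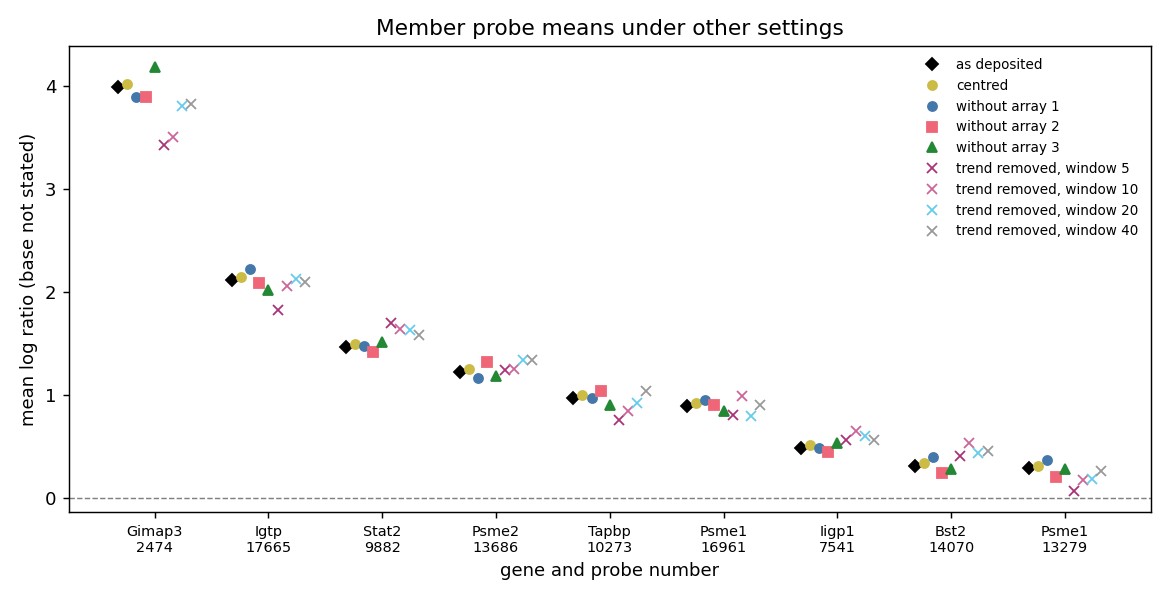
Mean log ratio (base not stated) of each probe measured on all 3 arrays as deposited, with arrays centred on their median, without each array, and with a running median over 5 to 40 probe numbers on either side subtracted. All means stay above 0, and Psme1 probe 13279 comes nearest to it, at 0.07 with the narrowest window.

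The table as a whole had values of exactly 0 for 24.2% to 26.8% of probes per array, and 4 of the 33 values of the described probes were 0. Pearson's r across probes was 0.952 to 0.969 between arrays, given without a p because probes are not replicates. Deviations of an array from the mean correlated between neighbouring probe numbers at 0.441 to 0.588. The number of arrays limits the precision. Cell markers in the RNA were positive for 3 of 3 tested B cell genes (median 3.53), 4 of 5 T cell genes (2.24), 3 of 3 dendritic cell genes (1.77), 3 of 3 genes of macrophages and monocytes (3.58), 6 of 6 erythroid genes (2.70), 3 of 3 neutrophil genes (4.66) and 1 of 1 NK cell gene, and negative for 5 of 5 fibroblast and matrix genes (-2.38) and 4 of 4 epithelial genes. Over all genes tested, 33.2% were called positive and 37.1% negative. The T cell gene called negative was Cd3d, at -0.85 ± 0.059 (SD, n = 3). The macrophage markers Csf1r and Vcam1 were at exactly 0 on all arrays. Outside the test, the macrophage marker Cd68 had -0.07 on array 3 alone and the erythroid gene Alas2 -0.63 on array 1 alone. Exocrine pancreas genes, which mark no spleen cell, were also positive, 9 of 9 with a median of 4.04 and a range of 1.65 to 5.22. Endothelial genes were positive for 3 of 4, and Flt1 was negative at -0.23. The signs of these lists helped to set the reading of direction and are no independent evidence of it. The part of the cell mixture in the ratios described above was not tested.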

How the data were processed

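The authors deposited 1 table with a signed log ratio per probe and array, and no source used here gives the array type, image analysis, normalization, log base or numerator. Values were used as deposited, and an exact 0 was read as no measurement. Probes were named from GEO's annotation of the platform, and promoters came from RefSeq, build GRCm38.p6. Probes with a value other than 0 on all 3 arrays (11086), and the means of such probes with 1 symbol (6077 genes), were fitted in limma 3.58.1 under R 4.3.3 for a mean other than 0 (intercept fit, moderated variance, two-sided, Benjamini-Hochberg adjustment over the whole table). If the 3 arrays hold the same 2 extracts, they amount to 1 replicate. The genes described and the lists were chosen with earlier results of these data known. The rule for names took all described genes, from each list up to 4 others ranked by absolute mean, and the 2 nearest genes by Euclidean distance to each of the 3 described genes with the largest mean. Ifnar2, Ptpn2, Oasl2, Eif2ak2, Tor3a, Cd3d and Flt1, and genes with values on part of the arrays, fall outside it and were named after their values were seen. Tested on simulated data with 11086 probes, limma found 19 of 50 probes with a shift of 0.25 and all 50 at each shift of 0.5, 1 and 2, beside 22 false calls. With 6077 genes it found 16, 48, 50 and 50 of 50, beside 14 false calls. At both levels the false calls were a larger share of the calls than the threshold of 0.05. The simulated errors were independent between probes, unlike those of neighbouring probe numbers here. The simulation shifted only 200 features at each level, while 68.3% of the real probes were called. Its recovery therefore does not carry over to the real test. Plots used matplotlib 3.10.9 (Python 3.11.15).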

Additional observations from a re-analysis of the deposited data

How the results depend on the processing

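The 9 described probes and 8 described genes measured on all 3 arrays kept a positive mean under each alternative run on them. The count of calls over the whole table fell from 7576 to 4609 probes and from 4270 to 2770 genes without moderation, to 2104 probes and 1208 genes against a 1.5-fold ratio in base 2, and to 3120 probes and 1771 genes against a 1.5-fold ratio in natural logs. Against either 1.5-fold ratio 5 of the 8 tested genes described kept a call, and Iigp1, Bst2 and Psme1 did not. Psme1 was averaged over its probes there. In the probe test against 1.5-fold, its probe 16961 passed (limma adjusted p = 0.0123 in base 2 and 0.00101 in natural logs). Probe 13279 passed neither. Of 153 comparisons of single described probes with an alternative 14 ended a call, all of Iigp1, Bst2 or Psme1 probe 13279, and of 144 comparisons of described genes 8 did. Centring, scaling, quantile normalization and robust moderation ended no call of a described probe or gene. No paired analysis was possible because the arrays form 1 group. Without intensities, signal over background is unknown, and small ratios such as those of Bst2 and Psme1 probe 13279 rest on 3 values each.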

Other observations

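Several immune genes had values on part of the arrays and so were outside the test that requires all 3. Rsad2, the antiviral enzyme viperin, had a log ratio of 3.37 on array 3 and exactly 0 on the others. Zbp1, a sensor of nucleic acids in the Z form, had 0.92 and 0.85 on arrays 1 and 2 and 0 on array 3. Of the 3 probes of Cd74, the MHC class II invariant chain, 1 had 2.13 on array 1 and 2.19 on array 3, another had 3.43 on array 3 alone, and the third was at 0 throughout. H2-Aa, a class II alpha chain, had 0.92 and 0.84 on arrays 1 and 2. Calr, the peptide loading chaperone calreticulin, had -0.32 on array 1 alone. The probes of Irgm1, Ifngr1, Irf8 and Socs3 and both probes of Ifitm3 were at exactly 0 on all 3 arrays, which does not show that these genes were not expressed.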
